A study of Mus musculus with 6 samples.

Results

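The secreted side of Wnt signaling was examined through 10 genes, namely the ligands Wnt5a and Wnt10b and the secreted inhibitors Sfrp1, Sfrp2, Sfrp4, Sfrp5, Frzb, Wif1, Dkk2 and Dkk3. They were chosen by symbol from the 22466 genes with a RefSeq transcript in the deposited abundance table, and where a gene had several RefSeq rows the row with the highest mean over all cultures stood for it. The row was thus selected on its mean RPKM over both genotypes, which made a difference for Wnt5a alone, which had 2 RefSeq rows. The genes were chosen with earlier results of these data known, and Sfrp1 is among the genes that the study lists as differential on these same cultures. Their differences between the genotypes are therefore given as a description.

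Transcript abundance was measured in 6 cultures of primary brown adipocytes, which are brown fat precursors from the stromal-vascular fraction of interscapular brown adipose tissue that were differentiated in the dish. The donors were male 129SvEvS1 mice aged 5 to 6 wk. 3 independent cultures came from wildtype mice (WT replicates 10, 11 and 12) and 3 from UCP1(-/-) mice of the same strain (Ucp1-KO replicates 13, 14 and 15). All 6 cultures had 2 d of induction with isobutylmethylxanthine, indomethacin, dexamethasone, insulin, T3 and rosiglitazone, followed by 7 d with insulin, T3 and rosiglitazone, and no stimulated culture is part of the series. How many animals went into a culture is not given in the sources used here, so that the p-values measure the spread between these cultures, which may in part be technical.

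Abundance is stated in RPKM, the read number scaled to transcript length and to all mapped reads of a culture. The totals behind these values, computed from the steps in which low RPKM values rise, lay between 14989604 and 17727653 reads. Ucp1, the targeted gene, had 1775, 981 and 1157 RPKM in the WT cultures and 307, 409 and 398 RPKM in the Ucp1-KO cultures, in the order of the replicates. The mutant allele still gives a remnant transcript that lacks a pair of exons, per the study's description of these mice. The cell type named in the labels was checked by its markers. Of 10 adipocyte markers, 10 were above the minimum abundance for testing, led by Fabp4, Adipoq and Lpl, and so were 8 of 8 brown adipocyte markers, led by Cidea, Cox7a1 and Cox8b.

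Wnt proteins are lipid-modified signals that act on neighboring cells through Frizzled receptors. With the co-receptors Lrp5 and Lrp6 they stabilize β-catenin, and with Ror and Ryk receptors they act by routes without β-catenin. Secreted Frizzled-related proteins (Sfrp1 to Sfrp5 and Frzb, also known as Sfrp3) carry a Frizzled-like domain and bind Wnts outside the cell, Wif1 also binds Wnts, and Dickkopf proteins bind the Lrp co-receptors, except for Dkk3, whose action on this pathway is less clear. In fat, Wnt10b and β-catenin signaling are known to hold precursors back from becoming adipocytes, and stromal cells are known to express several secreted inhibitors.

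Promoter sequences of RefSeq on GRCm38.p6 were at hand for 6 of the 10 genes (Sfrp2, Sfrp5, Frzb, Wif1, Dkk2 and Wnt10b), each from 250 bases before to 50 bases after a start site. The entries of Sfrp1, Sfrp4, Dkk3 and Wnt5a are missing. 4 are shown because they belong to inhibitors with unlike levels in these cells, 3 of them of the Frizzled-related family: Sfrp2, which was abundant, Frzb, which was lower in every Ucp1-KO than in every WT culture, Sfrp5, which was hardly detected, and Dkk2, which was just detected. Capitals mark 3 words on either strand, namely GGGCGG as the core of the GC box, the CCAAT box, which appears as ATTGG where it lies on the reverse strand, and TATAAA as the TATA box. No marked words overlap, but a reverse CCAAT and a GGGCGG adjoin in Dkk2. The windows are chr3:83766071-83766370 on the forward strand (Sfrp2), chr2:80447347-80447646 on the reverse strand (Frzb), chr19:42202203-42202502 on the reverse strand (Sfrp5) and chr3:132085042-132085341 on the forward strand (Dkk2). Their start sites are those of the promoter entries and coincide with the start of the gene for Frzb and Sfrp5, but lie 26 bases inside the gene for Dkk2 and 571 bases inside the gene for Sfrp2, so that the whole Sfrp2 window is within the annotated gene.
Sfrp2: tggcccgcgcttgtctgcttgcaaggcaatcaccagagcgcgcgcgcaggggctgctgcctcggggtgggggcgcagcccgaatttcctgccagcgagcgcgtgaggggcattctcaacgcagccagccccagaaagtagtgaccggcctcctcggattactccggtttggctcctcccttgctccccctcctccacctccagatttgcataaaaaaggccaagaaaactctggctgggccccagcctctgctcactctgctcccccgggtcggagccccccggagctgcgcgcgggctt
Frzb: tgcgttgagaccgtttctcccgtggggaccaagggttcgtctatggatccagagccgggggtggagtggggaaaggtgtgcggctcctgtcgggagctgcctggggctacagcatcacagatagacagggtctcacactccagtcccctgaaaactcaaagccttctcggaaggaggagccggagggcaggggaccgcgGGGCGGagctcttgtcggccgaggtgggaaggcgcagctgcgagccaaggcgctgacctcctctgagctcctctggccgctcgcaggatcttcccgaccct
Sfrp5: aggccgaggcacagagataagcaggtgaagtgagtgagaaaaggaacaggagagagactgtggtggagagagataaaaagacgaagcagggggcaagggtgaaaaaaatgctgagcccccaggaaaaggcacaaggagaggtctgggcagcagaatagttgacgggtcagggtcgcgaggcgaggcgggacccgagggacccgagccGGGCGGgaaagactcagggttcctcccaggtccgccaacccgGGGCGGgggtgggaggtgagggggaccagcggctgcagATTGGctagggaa
Dkk2: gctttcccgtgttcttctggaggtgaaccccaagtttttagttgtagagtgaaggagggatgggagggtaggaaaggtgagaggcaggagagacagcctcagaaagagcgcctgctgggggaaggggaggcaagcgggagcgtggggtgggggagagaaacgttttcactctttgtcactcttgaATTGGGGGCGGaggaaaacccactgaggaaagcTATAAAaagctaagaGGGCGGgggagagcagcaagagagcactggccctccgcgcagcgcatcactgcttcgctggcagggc

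The windows were rich in G and C, with 66.0% in Sfrp2, 64.7% in Frzb, 61.3% in Sfrp5 and 57.7% in Dkk2, against a median of 52.7% over 32851 promoters of the same length. They held 22, 20, 15 and 11 CG pairs, against a median of 7. GGGCGG occurred in Frzb, Sfrp5 and Dkk2 and in 35.7% of all promoters. TATAAA stood 32 bases before the start site used for the window of Dkk2 and was present in 13.6% of all promoters. CCAAT on the reverse strand was found in Sfrp5 and Dkk2 and, on either strand, in 37.4% of all promoters. The TCF/LEF word, searched on both strands in the form AACAAAG, in the form ATCAAAG, in the form TACAAAG and in the form TTCAAAG, was in none of the 6 windows and in 16.9% of all promoters.

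Wnt5a, a ligand known mainly for signaling without β-catenin, was the most abundant Wnt gene of these cells. It lies on the forward strand of chromosome 14 (28504543 to 28527448). Its abundance was 8.53, 9.72 and 9.27 RPKM in WT replicates 10, 11 and 12 and 8.73, 7.82 and 7.64 RPKM in Ucp1-KO replicates 13, 14 and 15. The values of the genotypes overlapped, since Ucp1-KO replicate 13 lay above WT replicate 10, and no culture deviated much from the others. WT cells averaged 9.17 ± 0.601 RPKM and Ucp1-KO cells 8.06 ± 0.585 RPKM (SD, n = 3 each). On the log2(RPKM + 1) scale Ucp1-KO cells differed from WT cells by -0.17 (standard error of 0.10, limma adjusted p = 0.876 over all transcripts tested). The second RefSeq row of Wnt5a, a transcript of 8708 bases in place of 3731, gave 8.15, 8.92 and 8.77 RPKM in WT and 8.22, 7.48 and 7.28 RPKM in Ucp1-KO cultures, with the same overlap.

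Wnt10b, the ligand best known for blocking adipogenesis, was not detectable at this depth. Its transcript (2227 bases, reverse strand of chromosome 15, 98770712 to 98778206) had 0, 1 and 2 reads in WT replicates 10, 11 and 12 and 2, 0 and 0 reads in Ucp1-KO replicates 13, 14 and 15. All of these are within the 3 reads that were taken as the floor, which corresponds to between 0.0760 and 0.0899 RPKM and covers counting error only. No fold change is given for it.

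The other Wnt genes place both ligands in their family. Of 17 further ligands, 3 reached the mean of 0.5 RPKM needed for testing, 9 had at most 3 reads in every culture, and 1, Wnt1, had no read at all. Wnt16 had 2.66 ± 1.23 RPKM in WT against 1.49 ± 0.196 RPKM in Ucp1-KO cells (SD, n = 3 each), Wnt9a 1.22 ± 0.372 and 0.852 ± 0.1603 RPKM, and Wnt11 0.610 ± 0.259 and 0.612 ± 0.256 RPKM. Their log2 fold changes were -0.50 (standard error 0.24), -0.25 (standard error 0.16) and 0.0019 (standard error 0.18), and the genotypes overlapped for each. Wnt4, singled out after its values were seen, fell outside the tested genes, with 17, 21 and 18 reads in WT and 14, 1 and 1 reads in Ucp1-KO cultures. Over all ligand genes, Wnt5a alone had more than 5 RPKM.

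**Figure D1:**
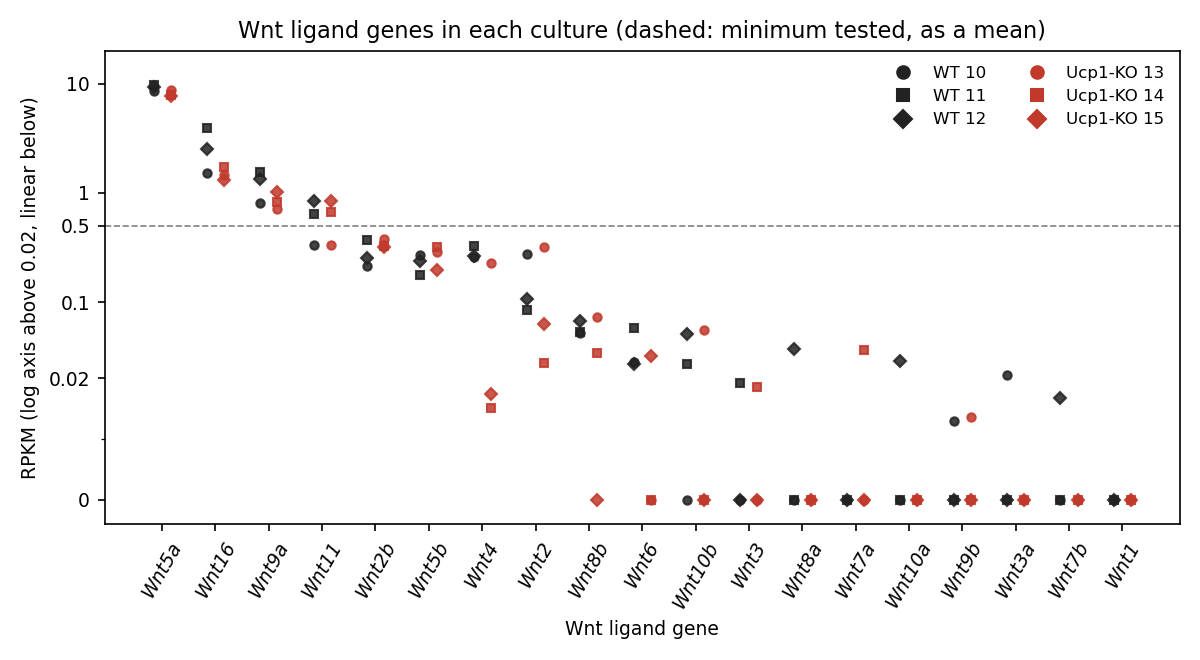
Abundance of 19 Wnt ligand genes in each of the 6 cultures, in RPKM on an axis that is logarithmic above 0.02 and linear below, with 1 point per culture (black WT, red Ucp1-KO). Wnt5a stands between 7.64 and 9.72 RPKM in all cultures, while Wnt10b is among the genes with values at 0.

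Sfrp1 was the most abundant of the 10 genes and had lower values in each Ucp1-KO culture. It is a transcript of 4372 bases on the forward strand of chromosome 8 (23411383 to 23449632). Ucp1 lies on the same chromosome but far from it (83290348 to 83298456). The 3 WT cultures had 33.3, 90.2 and 63.6 RPKM, from 2486, 6582 and 4929 reads, and the 3 Ucp1-KO cultures 25.3, 22.2 and 12.2 RPKM, from 1789, 1671 and 798 reads. All Ucp1-KO cultures thus lay below all WT cultures, with the lowest WT value 1.31-fold above the highest Ucp1-KO value. The WT cultures themselves differed 2.71-fold and the Ucp1-KO cultures 2.08-fold. The Ucp1-KO mean was 31.9% of the WT mean, and the log2 fold change amounted to -1.55 (standard error of 0.40, limma unadjusted p = 0.00636, adjusted p = 0.868). In a culture, fewer cells of a type and less RNA per cell cannot be told apart.

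Among the 6 tested genes, Sfrp4 had the largest fold change. It also had the widest range within each genotype, as a ratio of highest to lowest culture. Its transcript of 1760 bases lies on the forward strand of chromosome 13 (19623175 to 19632825). WT cultures had 1.96, 14.4 and 4.33 RPKM and Ucp1-KO cultures 0.950, 1.48 and 0.265 RPKM. The genotypes did not overlap, yet WT replicate 11 stood far above the other WT cultures, which made a 7.35-fold range within WT. The lowest Ucp1-KO value rested on 7 reads, against 59 in the lowest WT culture. WT cells averaged 6.91 ± 6.62 RPKM and Ucp1-KO cells 0.900 ± 0.611 RPKM (SD, n = 3 each), 13.02% of WT. The log2 fold change of -1.77 (standard error 0.58, limma unadjusted p = 0.0194, adjusted p = 0.868) went to -1.12 without WT replicate 11 and to -2.70 with limma-voom on read numbers, and its unadjusted limma p rose to 0.0620 without Ucp1-KO replicate 15 and to 0.0539 without a minimum abundance. Without WT replicate 11 the fall of Sfrp1, -1.23, was larger than that of Sfrp4.

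Frzb was a rare transcript with the same order of the genotypes. It is encoded on the reverse strand of chromosome 2 (80411970 to 80447396) by a transcript of 2920 bases. Its abundance was 0.622, 1.27 and 0.811 RPKM in WT, from 31, 62 and 42 reads, and 0.339, 0.378 and 0.457 RPKM in Ucp1-KO cultures, from 16, 19 and 20 reads. No Ucp1-KO culture reached a WT culture, and the Ucp1-KO cultures were close to each other. WT cells averaged 0.902 ± 0.334 RPKM and Ucp1-KO cells 0.391 ± 0.0600 RPKM (SD, n = 3 each), 43.4% of WT. Frzb passed the minimum of 0.5 RPKM over all cultures only through its WT level, so that the minimum itself favored a lower value in Ucp1-KO cells. The log2 fold change amounted to -0.44 with 1 RPKM added (standard error of 0.16, limma unadjusted p = 0.0264, adjusted p = 0.868), -0.98 with 0.1 RPKM added and -1.13 with limma-voom on read numbers, since the added constant is as large as the level of this gene. With each culture left out in turn, its unadjusted p was under 0.05 in 2 of 6 fits and otherwise reached up to 0.0831 (limma).

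Sfrp2, the second most abundant of the 10 genes, did not follow this order. On chromosome 3 (forward strand, 83765750 to 83774314), its transcript of 2001 bases had 12.1, 18.1 and 11.7 RPKM in WT and 21.9, 10.5 and 4.67 RPKM in Ucp1-KO cultures. Both the highest and the lowest value were found in Ucp1-KO cultures, replicates 13 and 15, so that the Ucp1-KO range enclosed the WT range. WT cells averaged 13.99 ± 3.61 RPKM and Ucp1-KO cells 12.4 ± 8.77 RPKM (SD, n = 3 each). The log2 fold change amounted to -0.36 (standard error of 0.47, limma adjusted p = 0.919) and went to -0.87 without Ucp1-KO replicate 13 and to 0.14 without Ucp1-KO replicate 15.

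Sfrp5, the Frizzled-related protein known from mature white adipocytes, was at the floor in these brown adipocytes. Its transcript of 1900 bases (reverse strand of chromosome 19, 42197971 to 42202252) had a single read in WT replicate 12 and a single read in Ucp1-KO replicate 13 and none in the other cultures. 3 reads would be between 0.0891 and 0.105 RPKM. The 5 members of the family in these cells thus covered the range from below this floor to 90.2 RPKM.

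Wif1 was likewise at the floor, with 1 read in WT replicate 11, 3 reads in Ucp1-KO replicate 13 and no read in the other cultures (2242 bases, forward strand of chromosome 10, 121034004 to 121100642). Dkk2, a Dickkopf protein that binds Lrp co-receptors, was detected in every culture and remained below the minimum for testing. Its reads numbered 13, 12 and 14 in WT and 10, 21 and 17 in Ucp1-KO cultures on a transcript of 3705 bases (forward strand of chromosome 3, 132085266 to 132180304), or 0.206, 0.194 and 0.213 RPKM against 0.167, 0.329 and 0.306 RPKM. Dkk2 was the only 1 of the 7 detected genes with a higher mean in Ucp1-KO cells, 0.267 ± 0.0875 against 0.204 ± 0.00961 RPKM (SD, n = 3 each). The genotypes overlapped, because Ucp1-KO replicate 13 was the lowest of all cultures.

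Dkk3 had lower values in each Ucp1-KO culture than in any WT culture. It lies on the reverse strand of chromosome 7 (112116019 to 112159482) and has a transcript of 3357 bases. WT cultures had 3.35, 5.03 and 3.58 RPKM and Ucp1-KO cultures 2.75, 1.57 and 1.29 RPKM, from 192, 282 and 213 against 149, 91 and 65 reads. The groups did not overlap, but Ucp1-KO replicate 13 came close to the WT cultures, the lowest of which was 1.22-fold above it. WT cells averaged 3.99 ± 0.913 RPKM and Ucp1-KO cells 1.87 ± 0.773 RPKM (SD, n = 3 each), 46.9% of WT. The log2 fold change amounted to -0.81 (standard error of 0.22, limma unadjusted p = 0.00781, adjusted p = 0.868).

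**Figure D2:**
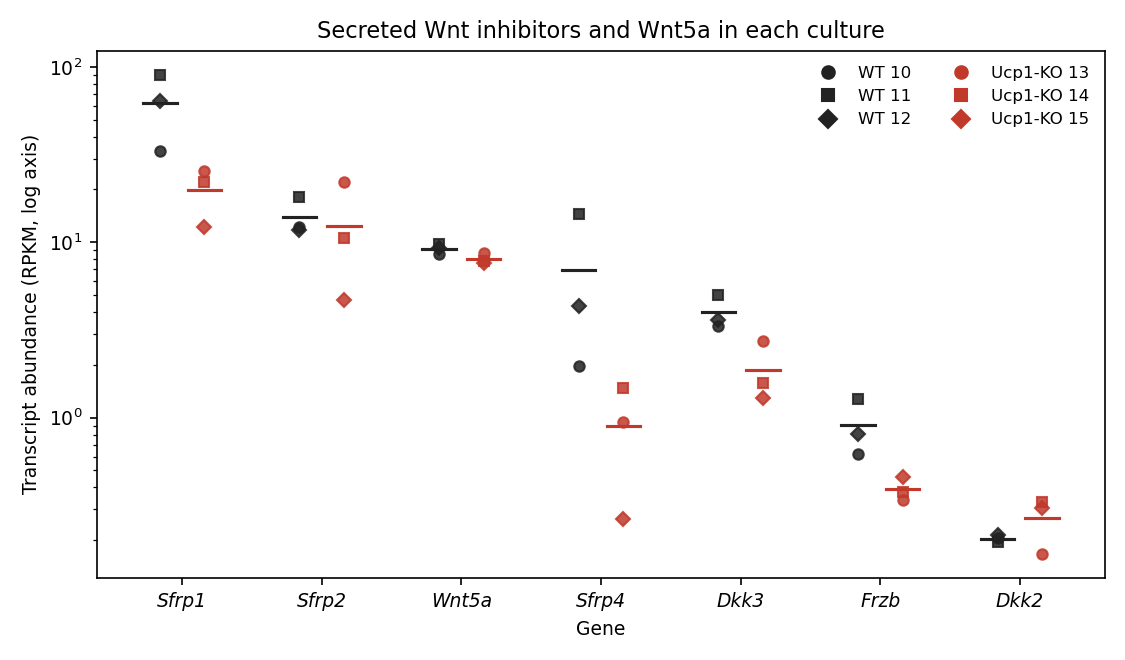
Abundance of the 7 detected genes in each culture, in RPKM on a logarithmic axis, with 1 point per culture (black WT, red Ucp1-KO) and a bar at the mean of each genotype. For Sfrp1, Sfrp4, Dkk3 and Frzb all red points lie below all black points, whereas those of Sfrp2, Wnt5a and Dkk2 overlap.

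Ordered by mean level, the genes ran from Sfrp1 over Sfrp2, Wnt5a, Sfrp4, Dkk3 and Frzb to Dkk2, with Wnt10b, Wif1 and Sfrp5 at the floor. Sfrp1 was above Sfrp2 in each of the 6 cultures. Sfrp2 and Wnt5a did not differ beyond the spread of the Ucp1-KO cultures, in which Sfrp2 was the higher in replicates 13 and 14 and the lower in replicate 15. Sfrp4 and Dkk3 also changed places, with Sfrp4 higher in WT replicates 11 and 12 and Dkk3 higher in the other 4 cultures. Sfrp1 made up between 42.0% and 68.0% of the summed RPKM of the 10 genes, with 55.4%, 64.9% and 68.0% in WT and 42.0%, 50.1% and 45.4% in Ucp1-KO cultures. The share of Wnt5a lay between 6.99% and 28.5% and was highest in Ucp1-KO replicate 15, where Sfrp1 and Sfrp2 were at their lowest.

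Across the transcriptome, limma called 0 of the 16865 RefSeq transcripts tested (0%) at an adjusted p under 0.05, and 0 of the 6 genes that entered the fit. The targeted gene Ucp1 was not called either, with a log2 fold change of -1.78 (standard error of 0.24, limma unadjusted p = 0.000157, adjusted p = 0.868). limma-voom on read numbers also called 0. With an unadjusted p under 0.05, limma found 935 transcripts (5.54%) and limma-voom 884. Of the 6 genes abundant enough to be tested, 4 (Sfrp1, Sfrp4, Frzb and Dkk3) had an unadjusted p under 0.05 and were lower in Ucp1-KO cells, against 3.24% of all transcripts tested that were lower and 2.3% that were higher at this threshold. The same 4 had all Ucp1-KO cultures below all WT cultures, against 5.15% of all transcripts, and 0 of the 6 had them above, against 6.04%. Frzb is among the 6 only through its WT level, and 3 of the other 5 met either criterion. Because the genes were chosen with such results known, nothing is read from these shares. Over the 6 genes the log2 fold change had a median of -0.63, with 6 lower, beside -0.0016 for all transcripts tested, 50.4% of which were lower.

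A few cultures stood at the extremes for most of these genes. WT replicate 11 was the highest culture for 5 of the 6 tested genes, the exception being Sfrp2, while it was highest for 26.8% of all transcripts tested. Ucp1-KO replicate 15 was lowest for 5 of the 6, with Frzb as the exception, and for 26.5% of all transcripts. WT replicate 10 and Ucp1-KO replicate 13 had similar summed levels of the 10 genes, 60.1 and 60.4 RPKM, against 139 and 93.5 RPKM in the other WT cultures and 44.3 and 26.8 RPKM in the other Ucp1-KO cultures. Single genes differed between WT replicate 10 and Ucp1-KO replicate 13, with Sfrp1 at 33.3 and 25.3 RPKM and Sfrp2 at 12.1 and 21.9 RPKM. The summed level of the Frizzled-related genes, 48.0 and 48.6 RPKM in these cultures, therefore overlapped between the genotypes.

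Several Frizzled receptors were more abundant than most Wnt ligands, and none of those tested passed the test. Of 10 Frizzled genes, 6 were tested and 0 passed at an adjusted or unadjusted p under 0.05, against 5.54% of all transcripts at the unadjusted threshold. In Ucp1-KO cells 5 were lower and 1 higher, with a median log2 fold change of -0.16. Fzd4, the most abundant, had 28.9 ± 2.29 RPKM in WT against 32.5 ± 1.98 RPKM in Ucp1-KO cells (SD, n = 3 each, log2 fold change 0.17, standard error 0.10), and Fzd1 had 11.2 ± 1.08 and 9.75 ± 2.78 RPKM. Fzd7 had 5.61 ± 0.0222 and 5.33 ± 0.578 RPKM, Fzd8 3.27 ± 0.259 and 2.81 ± 0.361 RPKM, and Fzd5 2.32 ± 0.450 and 1.97 ± 0.330 RPKM. The lowest log2 fold change was that of Fzd2, -0.43 (standard error 0.19, limma unadjusted p = 0.0558, adjusted p = 0.868), with 4.18 ± 0.889 and 2.86 ± 0.771 RPKM. For all 6 the genotypes overlapped.

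Co-receptors and alternative receptors gave the same picture, with 6 of 6 tested, 0 called and a median log2 fold change of -0.21. Ryk, a receptor for signaling without β-catenin, was the most abundant with 26.3 ± 2.82 RPKM in WT against 22.3 ± 3.46 RPKM in Ucp1-KO cells, followed by Lrp6 with 16.4 ± 1.27 and 14.3 ± 1.35 RPKM (SD, n = 3 each). Lrp5 differed by a log2 fold change of -0.0014 (standard error 0.11). Ptk7, a kinase-dead receptor of the planar polarity branch, had the lowest, -0.43 (standard error 0.19, limma adjusted p = 0.868), and its values overlapped too.

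Among genes that export or amplify the signal, 0 had an adjusted p under 0.05, and Wls and Rspo2, of 6 tested, had all Ucp1-KO cultures below all WT cultures, against 5.15% of all transcripts. Wls, the carrier that brings Wnts to the cell surface, had 34.3 ± 5.28 RPKM in WT against 26.0 ± 1.004 RPKM in Ucp1-KO cells (SD, n = 3 each) without overlap of the genotypes (log2 fold change -0.38, standard error 0.12, limma unadjusted p = 0.0196, adjusted p = 0.868). Porcn, the enzyme that attaches the lipid, had 6.49 ± 2.82 and 3.55 ± 1.06 RPKM and overlapped. Of 9 R-spondins and their receptors, 4 were tested, with 2 higher, 2 lower and 0 called at an adjusted p under 0.05. Rspo2, a secreted amplifier of Wnt signals, had 2.39 ± 0.409 RPKM in WT against 1.42 ± 0.284 RPKM in Ucp1-KO cells without overlap (log2 fold change -0.49, standard error 0.15, limma unadjusted p = 0.0132, adjusted p = 0.868). Rspo3 had the lowest log2 fold change of this list, -0.58 (standard error 0.25), and overlapped, but it passed the minimum abundance only through its WT level (1.23 ± 0.670 RPKM, against 0.444 ± 0.164 RPKM in Ucp1-KO cells). The receptor Lgr4 had 7.68 ± 0.789 and 8.02 ± 0.927 RPKM, and the highest log2 fold change of the list, 0.07, was that of Znrf3, a ligase that removes Frizzled receptors.

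Of 9 further secreted inhibitors and Kremen receptors, 6 had at most 3 reads in every culture, among them Dkk1, Dkk4, Sost and Sostdc1, and 2 were tested. Igfbp4, which binds insulin-like growth factors and has also been described to inhibit Wnt signaling, had 143 ± 67.6 RPKM in WT against 62.6 ± 17.4 RPKM in Ucp1-KO cells (SD, n = 3 each). It was more abundant than Sfrp1, and its genotypes overlapped (log2 fold change -1.10, standard error 0.37, limma unadjusted p = 0.0216, adjusted p = 0.868). Kremen1, a receptor for Dickkopf proteins, had 11.1 ± 0.956 and 9.51 ± 0.990 RPKM.

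Inside the cell, 15 of 17 genes of the β-catenin pathway were tested, 0 were called at an adjusted or unadjusted p under 0.05, and the median log2 fold change was -0.08. Of all transcripts, 5.54% had an unadjusted p under 0.05, and at that share a list of this size need not hold any. Ctnnb1, which encodes β-catenin, had 112 ± 5.13 RPKM in WT against 114 ± 7.69 RPKM in Ucp1-KO cells, and the kinase gene Csnk1a1 had 122 ± 8.95 and 111 ± 6.79 RPKM (SD, n = 3 each). The extremes of the list were Dvl3 at 0.20 (standard error 0.12) and Csnk1a1 at -0.13 (standard error 0.10). Among 18 genes commonly used as β-catenin targets, some of which are also in the lists above, 11 were tested, with 3 higher, 8 lower and 0 at an unadjusted p under 0.05, against the same 5.54%, and the median was -0.06. Wisp2 had the lowest log2 fold change, -0.94 (standard error 0.52), with 66.9 ± 16.0 RPKM in WT against 40.6 ± 29.7 RPKM in Ucp1-KO cells, and Cd44 had 13.1 ± 1.41 and 10.1 ± 5.13 RPKM (SD, n = 3 each). Ccnd1 had the highest, 0.13 (standard error 0.53). Axin2, a feedback target chosen after its values were seen, had 0.857 ± 0.0320 and 0.997 ± 0.212 RPKM (log2 fold change 0.10, standard error 0.12, limma adjusted p = 0.915). The genotypes overlapped for all 11 tested target genes.

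**Figure D3:**
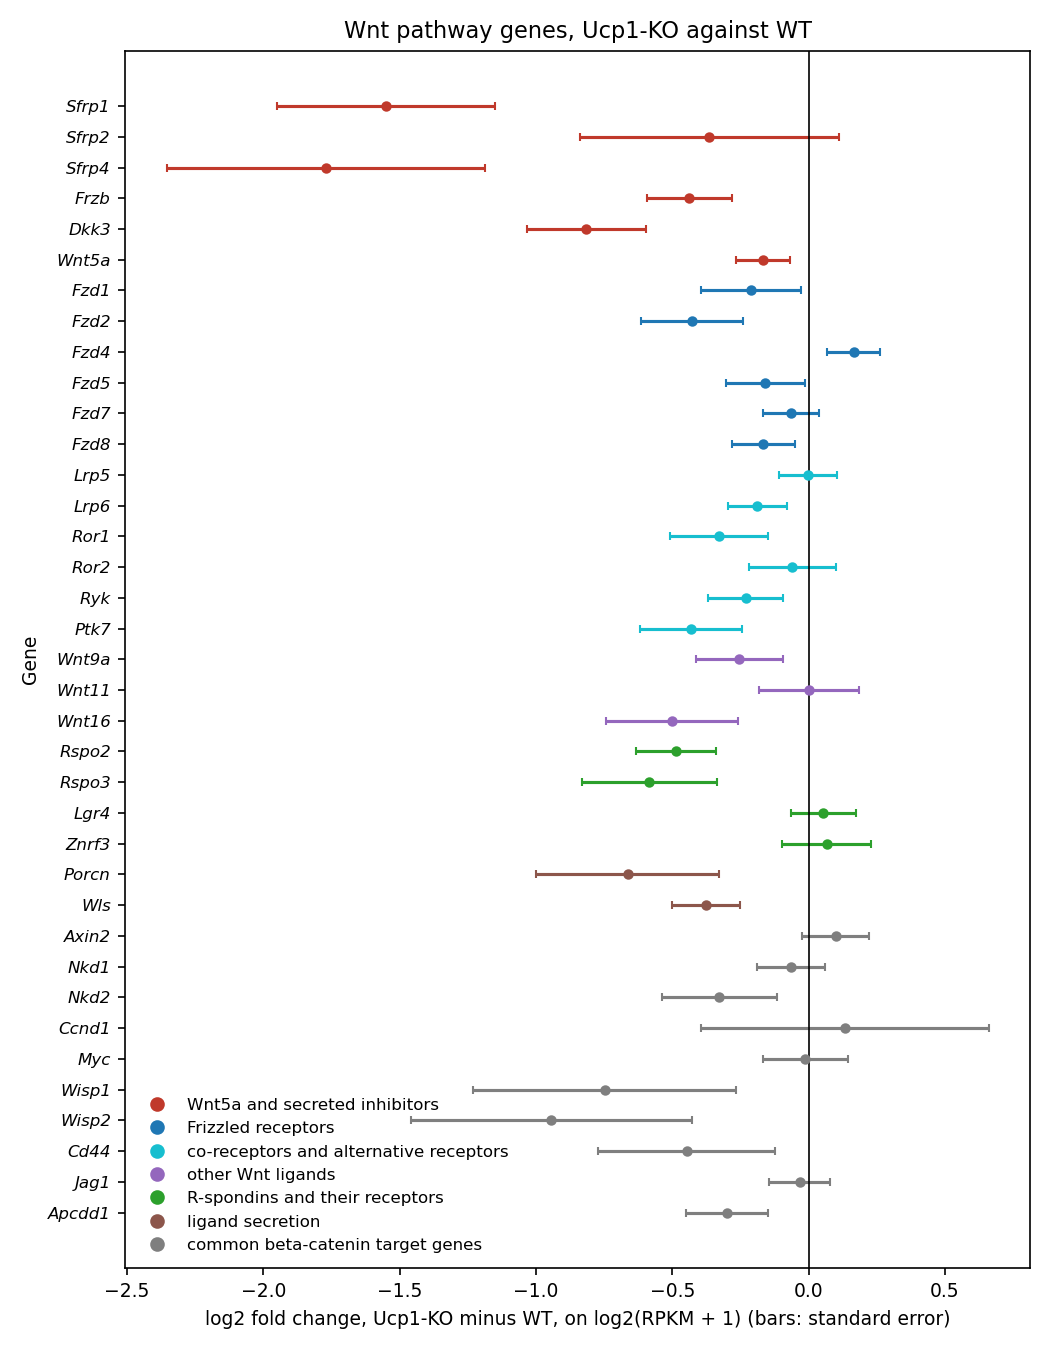
Log2 fold change (Ucp1-KO minus WT, on log2(RPKM + 1)) of Wnt5a, the secreted inhibitors and further Wnt pathway genes that were tested, with bars for the standard error of limma (3 against 3 cultures). Sfrp4 at -1.77 and Sfrp1 at -1.55 lie farthest to the left, while the Frizzled receptors lie between -0.43 and 0.17.

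Markers of some other cells were lower in Ucp1-KO cells too, while those of others were not. Of 16 stromal and preadipocyte markers, led by Col1a1, Col3a1 and Col1a2, 13 were tested. On the log2 scale 13 were lower in Ucp1-KO cells, 2 of them (Dcn and Fn1) at an unadjusted p under 0.05, against 3.24% of all transcripts, and 0 at an adjusted p under 0.05. The median log2 fold change was -0.48, and it was -0.20 without Ucp1-KO replicate 15 and -0.28 without WT replicate 11. In mean RPKM, Ly6a was higher in Ucp1-KO cells (122 ± 75.5 against 114 ± 31.6 in WT, SD, n = 3 each). Of the untested markers, Dlk1 had a higher mean in Ucp1-KO cells (0.431 against 0.228 RPKM), and Pi16 and Dpp4 had lower ones. The summed level of the 16 markers ranged from 1333 to 2785 RPKM in WT and from 1127 to 1800 RPKM in Ucp1-KO cultures. Of 7 mural and smooth muscle markers, led by Acta2, Tagln and Cspg4, 7 were tested and lower, with 3 at an unadjusted p under 0.05 (Cspg4, Cnn1 and Myh11), against the same 3.24%, 0 at an adjusted p under 0.05, a median of -0.93, and sums from 191 to 358 RPKM in WT and from 56.0 to 276 RPKM in Ucp1-KO cultures. The 6 endothelial markers, led by Pecam1, Cdh5 and Emcn, had a median of -0.44 over the 4 tested, which was 0.14 without WT replicate 11 and -1.10 without WT replicate 10, and summed to between 2.78 and 33.4 RPKM in WT, highest in replicate 11, and to between 5.59 and 15.7 RPKM in Ucp1-KO cultures. The 5 leukocyte markers with a row in the table, led by Cd68, Csf1r and Cd14, had a median of 0.31 with 4 higher and 1 lower, which was -0.48 without Ucp1-KO replicate 14, and summed to between 18.1 and 47.2 RPKM in WT and to between 12.1 and 127 RPKM in Ucp1-KO cultures, highest in replicate 14. Of the 6 skeletal muscle markers, Acta1 alone was tested, with a log2 fold change of 0.31. Myog had 6, 0 and 0 reads in WT against 29, 1 and 17 in Ucp1-KO replicates, Myh3 had 9, 0 and 0 against 52, 0 and 31 reads, and the satellite cell marker Pax7 had none. The 4 mesothelial markers summed to at most 3.49 RPKM, with Lrrn4 at 0.38 and Wt1, tested only through its WT level, at -0.68 on the log2 scale and Msln at no more than 3 reads. Lrrn4 had a limma unadjusted p of 0.0385 (adjusted p = 0.868), and 2.3% of all transcripts were higher at an unadjusted p under 0.05. All Ucp1-KO cultures lay above all WT cultures for Lrrn4, against 6.04% of all transcripts.

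The adipocyte markers, in contrast, had a median log2 fold change of 0.15 with 9 higher and 1 lower, and the brown adipocyte markers 0.13 with 7 higher and 1 lower. These medians went down to 0.08 without Ucp1-KO replicate 13 and to 0.06 without WT replicate 11. Per 1000 RPKM of stromal and preadipocyte markers, Sfrp1 amounted to 25.0, 32.4 and 35.7 RPKM in WT and to 14.1, 14.6 and 10.8 RPKM in Ucp1-KO cultures, 42.4% of WT, and the same 4 genes had no overlap of the genotypes. Per 1000 RPKM of mural and smooth muscle markers, Sfrp1 amounted to 93.0, 384 and 333 RPKM in WT and to 91.7, 272 and 217 RPKM in Ucp1-KO cultures, and 0 of the 6 genes were lower in all Ucp1-KO cultures. On this scale the Ucp1-KO mean was 71.8% of WT for Sfrp1 and 29.5% for Sfrp4, but 170% for Sfrp2 and 232% for Wnt5a, and every Ucp1-KO culture exceeded every WT culture for Sfrp2. Frzb amounted to 1.74, 5.41 and 4.24 RPKM in WT and 1.23, 4.63 and 8.16 RPKM in Ucp1-KO replicates, with Ucp1-KO replicate 15 alone above all WT cultures, and Dkk3 to 9.35, 21.4 and 18.7 against 9.94, 19.3 and 23.1 RPKM. The mural and smooth muscle sums were themselves 358, 235 and 191 RPKM in WT and 276, 81.5 and 56.0 RPKM in Ucp1-KO replicates. A transcript with equal RPKM in all cultures would thus come out highest in Ucp1-KO replicates 14 and 15 on this scale. The share of all transcripts without overlap was not computed on either ratio scale, so nothing is read from these counts. The part of other cells in the differences of the Wnt genes was not tested. Both ratios were added after the data were seen.

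**Figure D4:**
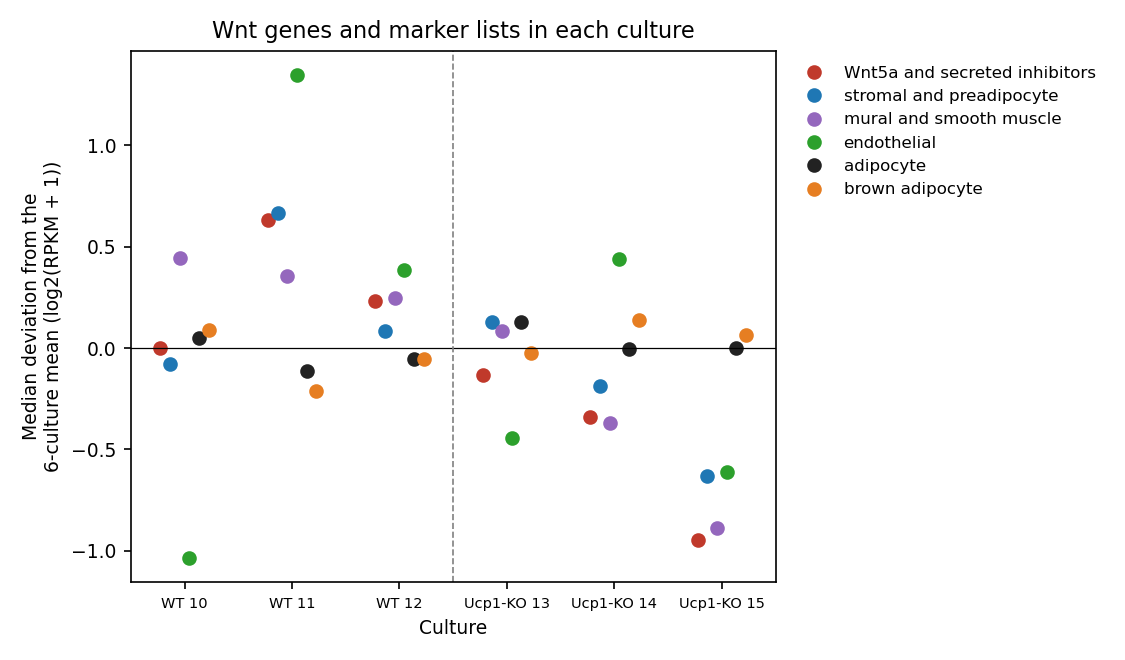
Median deviation from the mean of all 6 cultures, on log2(RPKM + 1), of the 6 tested Wnt genes and of 5 marker lists in each culture, with 1 point per list and culture. The Wnt genes and the stromal markers are both highest in WT replicate 11 (0.63 and 0.67) and lowest in Ucp1-KO replicate 15 (-0.95 and -0.63), while adipocyte markers stay between -0.11 and 0.13.

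Genes with the pattern most like that of Sfrp1 and Wnt5a were sought among 690 genes with a mean of at least 5 RPKM and a range of at least 1 on log2(RPKM + 1). Wnt5a itself, between 7.64 and 9.72 RPKM, did not reach this range. Genes as steady as Wnt5a were therefore not compared, and those named beside it varied more. The measure was Pearson's r over the 6 cultures. All genes of a culture come from the same library and the same mixture of cells, and r is given as a description. Closest to Sfrp1 were Nudt4 with r = 0.995, Osmr and Pros1 with r = 0.986, Mxra8 with r = 0.981 and Il6st with r = 0.979. Osmr and Il6st encode receptor subunits of the interleukin-6 family. Osmr had 26.7 ± 4.88 RPKM in WT against 14.5 ± 3.42 RPKM in Ucp1-KO cells, and Il6st 57.4 ± 17.6 and 33.2 ± 4.44 RPKM (SD, n = 3 each). Among those closest to Wnt5a were Cdh11 with r = 0.982, Bgn with r = 0.977, and Col8a1 and Prg4 with r = 0.969, which encode a mesenchymal cadherin and proteins of the extracellular matrix. Col8a1 had 18.3 ± 9.28 RPKM in WT against 6.21 ± 5.38 RPKM in Ucp1-KO cells (SD, n = 3 each).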

How the data were processed

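Total RNA of 6 cultures was sequenced in 50-base single reads. Mapping to GRCm38 (mouse build 38) and assignment of unique reads to annotated transcripts with Genomatix software were done by the authors, who deposited RPKM values, 1 column per culture, for 168326 transcript rows of several annotations. CASAVA and bcl2fastq are named in the submitters' processing notes. The 28890 RefSeq rows (NM and NR accessions) were used here. Genotypes came from the sample titles. Cultures of a genotype were separate libraries, with a chi-square per degree of freedom of at least 11.4 between their read numbers.

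Rows with a mean of at least 0.5 RPKM (16865 rows of 12259 genes) entered a limma fit (version 3.58.1, R 4.3.3) of genotype alone on log2(RPKM + 1), with moderated variances that followed mean abundance. Benjamini-Hochberg adjustment ran over all rows, with a threshold of 0.05. The added 1 RPKM understates the fold change of rare transcripts. RPKM steps were read as whole read numbers. Library totals were derived from Ensembl transcripts, whose lengths GENCODE M21 gives, of which between 93.3% and 93.6% of the low values per culture then came out whole. The length of a RefSeq row was taken as the whole number of bases that made its values whole in all cultures within the rounding of the deposited decimals, the one nearest to an annotated length where several did. That all 16865 tested rows gave whole reads follows in part from this choice. The comparison was tested on simulated data. Coordinates are from RefSeq on GRCm38.p6 and strands from GENCODE M21. Other steps ran in Python 3.11.15 (numpy 2.4.6, pandas 2.3.3, matplotlib 3.10.9).

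The 10 genes and all lists were chosen with earlier results of these data known. Named are the 10 genes, of each pathway list the 2 most abundant genes, the largest rise and fall and each gene with an unadjusted p under 0.05, all tested Frizzled and Wnt genes, of marker lists the 3 most abundant genes (and, outside this rule, chosen after their values were seen, Pax7 at 0 and Dcn, Fn1, Cnn1 and Myh11 with an unadjusted p under 0.05), and the 5 genes most like Sfrp1 and Wnt5a, of which 1 is not reported here. Exact permutation tests of 3 against 3 cultures cannot give a p below 0.10 and are not quoted. Alternatives were 0.1 RPKM added, no minimum, 1 row per gene, RPKM summed over rows, median-of-ratios scaling, limma-voom on the read numbers computed from RPKM, and leaving out each culture.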

Additional observations from a re-analysis of the deposited data

How the results depend on the processing

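Of the 6 tested genes, 6 stayed lower in Ucp1-KO cells under all alternatives except without Ucp1-KO replicate 15, where the log2 fold change of Sfrp2 was 0.14 (between -0.87 and 0.14 over the cultures left out). None of these 6 genes had an adjusted p under 0.05 under any alternative, and Sfrp5, Wif1, Dkk2 and Wnt10b were fitted only without a minimum abundance. Without a minimum abundance, 22 transcripts passed at an adjusted p under 0.05, 0 of them of the 10 genes, and the count was 0 under the other alternatives. Leaving out single cultures gave log2 fold changes from -1.94 to -1.23 for Sfrp1, from -2.31 to -1.12 for Sfrp4, from -0.55 to -0.30 for Frzb, from -1.02 to -0.67 for Dkk3 and from -0.22 to -0.13 for Wnt5a. Between 3 and 4 of these 6 genes then had an unadjusted p under 0.05, though not always the same ones, with Sfrp1 and Dkk3 in all 6 fits, Sfrp4 in 5, Frzb in 2 and Sfrp2 in 1 (without Ucp1-KO replicate 13), while the share of all transcripts lower at this threshold lay between 0.901% and 7.44%. Between 4 and 6 had all Ucp1-KO below all WT cultures, 6 of them without Ucp1-KO replicate 13, where 12.5% of all transcripts did (between 5.96% and 20.2% over the cultures left out). List medians then ranged from -0.24 to -0.10 for Frizzled receptors, from -0.27 to -0.12 for co-receptors, from -0.21 to -0.07 for target genes, from -0.09 to -0.04 for intracellular genes, from -0.39 to -0.15 for other ligands, from 0.08 to 0.14 for adipocyte, from 0.06 to 0.20 for brown adipocyte, from -0.61 to -0.20 for stromal, from -1.10 to 0.14 for endothelial and from -0.48 to 0.80 for leukocyte markers. Divided by the summed mural and smooth muscle markers, which was tried only once the data had been seen, 0 genes had this order. The share of all transcripts on that scale was not computed, and the cause was not tested. Read numbers limit Frzb, Dkk2 and Sfrp4 in Ucp1-KO cells, and Wnt10b, Wif1 and Sfrp5 cannot be compared. No paired analysis was possible because the replicate numbers of the genotypes are not shared.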

Other observations

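The deposited table lists most of these genes under further Ensembl and cDNA annotations, whose rows share reads with the RefSeq row and are no independent measurements. All Ucp1-KO cultures lay below all WT cultures in 4 of 4 rows of Sfrp1, 3 of 3 of Sfrp4, 5 of 5 of Frzb and 4 of 4 of Dkk3. The Ucp1-KO mean was between 27.8% and 34.2% of the WT mean over the rows of Sfrp1, between 13.02% and 14.5% for Sfrp4, between 35.3% and 47.8% for Frzb and between 46.9% and 51.8% for Dkk3. The genotypes overlapped in 5 of 5 rows of Sfrp2, where the mean was between 86.6% and 106% of WT, and in 11 of 12 rows of Wnt5a, between 61.8% and 99.2%. As a ratio of highest to lowest, the rows of Wnt5a differed most in level, with means between 1.11 and 8.76 RPKM. In RPKM the rows of Sfrp1 differed more, with means between 36.9 and 50.7. The level of Wnt5a thus depends on the annotation more than that of Dkk3, whose rows lay between 2.93 and 2.96 RPKM.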
